A study of Mus musculus with 6 samples.

Results

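The genes followed here make up the core of the circadian clock and its nearest outputs: *Arntl*, *Clock*, *Npas2*, *Nfil3*, *Per1*, *Per2*, *Per3*, *Cry1*, *Nr1d1* and *Dbp*, 10 of the 26903 genes in the count matrices, each with counts in all 6 libraries. They were selected on the KO against WT differences that an earlier pass over these libraries had shown, so those differences are given below as a description. Single-cell libraries came from the kidney cortex of mice aged 9 months, 3 wild type (WT) and 3 *Prdm16* global knockout (KO), with 1 mouse per library. In KO mice exon 2 of *Prdm16* was deleted with CRISPR-Cas9 in every cell of the body, which shifts the reading frame, and the WT mice carried no such deletion. All mice were labelled male, C57BL/6J is the strain the methods name for purchased mice, and animals were kept on a light/dark cycle with free food and water. The hour at which kidneys were taken is not given in the sources used here. The hour of collection and the genotype therefore cannot be told apart in any comparison of KO with WT below.

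The mammalian clock is a feedback loop of transcription. BMAL1, the product of *Arntl*, pairs with CLOCK or its paralog NPAS2 and switches on genes with E-box sequences, among them the *Per* and *Cry* genes, *Nr1d1* and *Dbp*. PER and CRY proteins return to the nucleus and inhibit the pair. A second loop passes through REV-ERB alpha, the product of *Nr1d1*, which represses *Arntl* and *Npas2* at response elements called ROREs. DBP, with its relatives TEF and HLF, activates genes with D-box sequences, and NFIL3 represses at the same sequences. In kidney, as in most tissues, *Arntl* and *Npas2* RNA rise and fall roughly opposite to *Dbp*, *Per2* and *Per3* over the day, and renal sodium and water handling follow the clock.

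These promoters are shown because they carry the 3 kinds of letters through which the loop is known to act. Windows of 300 bases (250 before to 50 after a start site) were taken from RefSeq on GRCm38.p6, where 9 of the 10 genes had 13 windows. Matches to the E-box CACGTG, the E'-box CACGTT, the D-box TTANGTAA and the RORE, read as AANT followed at once by NGGTCA (the first form) or by AGGTNA (the second form), are in capitals. Both strands were searched, and a run can match both RORE forms. The *Arntl* window lies at chr7:113207261-113207560 (plus strand), the *Per3* window at chr4:151044616-151044915 (minus strand), the *Cry1* window at chr10:85185005-85185304 (minus strand) and the *Per1* window at chr11:69098699-69098998 (plus strand).
Arntl: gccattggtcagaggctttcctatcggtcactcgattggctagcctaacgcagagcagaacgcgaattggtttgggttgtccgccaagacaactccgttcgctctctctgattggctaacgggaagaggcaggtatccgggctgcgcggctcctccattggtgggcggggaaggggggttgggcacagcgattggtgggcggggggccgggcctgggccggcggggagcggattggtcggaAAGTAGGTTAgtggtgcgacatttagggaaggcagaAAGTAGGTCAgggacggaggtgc
Per3: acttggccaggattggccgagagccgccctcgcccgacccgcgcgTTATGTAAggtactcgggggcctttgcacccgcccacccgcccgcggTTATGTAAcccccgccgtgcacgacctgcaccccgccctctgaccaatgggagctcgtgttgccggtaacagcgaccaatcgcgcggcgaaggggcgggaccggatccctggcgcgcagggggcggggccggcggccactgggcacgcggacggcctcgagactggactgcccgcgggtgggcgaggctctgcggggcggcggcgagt
Cry1: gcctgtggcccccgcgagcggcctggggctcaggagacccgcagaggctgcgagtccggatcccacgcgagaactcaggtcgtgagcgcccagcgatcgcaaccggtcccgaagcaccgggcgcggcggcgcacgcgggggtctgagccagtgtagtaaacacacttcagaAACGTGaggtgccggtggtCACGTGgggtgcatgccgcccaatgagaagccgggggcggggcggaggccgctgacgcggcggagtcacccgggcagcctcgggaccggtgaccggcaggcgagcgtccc
Per1: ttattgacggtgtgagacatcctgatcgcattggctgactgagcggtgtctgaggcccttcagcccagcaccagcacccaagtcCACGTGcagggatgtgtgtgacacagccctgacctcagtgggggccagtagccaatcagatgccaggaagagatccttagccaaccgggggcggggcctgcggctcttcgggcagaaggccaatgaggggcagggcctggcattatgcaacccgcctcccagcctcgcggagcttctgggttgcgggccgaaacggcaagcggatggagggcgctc
The *Arntl* window held 2 RORE matches, AAGTAGGTTA ending at the start site and AAGTAGGTCA 27 bases after it. The second of these matched both RORE forms. The *Per3* window held TTATGTAA in 2 places, 205 and 158 bases before the start. *Cry1* had an E-box 60 bases and an E'-box 79 bases before its start, and *Per1* an E-box 166 bases before. Of 32851 windows in the table, 7.15% held CACGTG, 4.68% CACGTT, 2.32% the D-box, 0.606% the first RORE form, 0.682% the second and 0.225% both RORE forms. In all, 6 of the 13 windows of the clock genes held a match. These were windows of *Per3*, *Cry1*, *Per1* and *Nr1d1* and 2 overlapping windows of *Arntl* that share AAGTAGGTTA. The share of all windows with a match of any kind is not given here, so nothing is read from that count. A match is a description of letters, and a window without one says only that these letters were not in those 300 bases.

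In GENCODE annotation on GRCm38 *Arntl* lies at chr7:113207465-113314126 (plus strand), *Dbp* at chr7:45705088-45710203 (plus strand), *Npas2* at chr1:39193731-39363236 (plus strand), *Per2* at chr1:91415982-91459324 (minus strand), *Clock* at chr5:76209868-76304792 (minus strand), *Nr1d1* at chr11:98767932-98775333 (minus strand) and *Nfil3* at chr13:52967209-52981073 (minus strand).

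Some facts of the libraries bear on every value. *Prdm16* over all retained cells was at 32.1, 26.7 and 27.1 counts per 1000000 UMIs (CPM) in WT and 21.2, 25.3 and 23.6 in KO, and the counts do not show which exon a transcript came from. WT replicate 2 and KO replicate 1 carried *Xist*, the transcript of the inactive X chromosome, at 297 and 307 CPM, and at most 0.0612 CPM of Y-linked RNA, against their label. Values without both are given beside the results. Between 3538 and 6276 cells were retained per library, with 22965576 to 35466580 UMIs, and 0 to 2 barcodes were shared by any pair of libraries. Cells fell into classes named from marker genes, each name meaning only that a cluster resembled that type, and 12 classes had at least 20 cells in every library. Along the tubule these were a thick limb-like class of the loop of Henle (LOH), a class with both thick limb and macula densa markers (LOH-MD), and the classes like distal convoluted tubule (DCT), connecting tubule (CNT), intercalated cells (IC) and principal cells (PC). The others were podocyte-like, macrophage-like, T and NK-like, endothelial-like, and stromal or mesangial-like. One further class is cluster 22, which scored highest on thin limb markers but is left unnamed because haemoglobin genes led it, and *Fosb* and *Egr2* were among the leading genes of 1 of the 3 podocyte-like clusters. LOH cells were rich in mitochondrial RNA, with a median share per cell of 39.8% to 44.1% over the libraries, against 10.9% to 13.5% in podocyte-like cells. Shares were also high in LOH-MD, CNT, IC and DCT, from 35.5% (DCT, KO replicate 2) to 44.0% (CNT, KO replicate 3).

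Over all retained cells 6 of the 10 genes had KO libraries wholly apart from WT, and 1 of them, *Npas2*, passed the test given further below. *Arntl* stood at 10.8, 10.3 and 20.9 CPM in the WT libraries and 4.75, 4.57 and 4.62 in the KO libraries. Every KO library lay below every WT library, with WT replicate 3 well above the other WT libraries. *Npas2*, the *Clock* paralog, was scarce at 1.98, 1.75 and 1.99 CPM in the WT libraries and 0.367, 0.435 and 0.401 in the KO libraries, from 187 and 32 UMIs. *Clock* itself differed little, at 26.3, 26.9 and 27.5 CPM in the WT libraries and 24.8, 24.3 and 20.1 in the KO libraries. The KO libraries were the lower ones for all 3 genes of the positive arm.

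*Per2* had 18.4, 24.9 and 23.7 CPM in the WT libraries and 37.7, 47.5 and 35.4 in the KO libraries. *Per3* had 7.98, 7.95 and 3.91 CPM in the WT libraries and 13.3, 13.8 and 9.39 in the KO libraries. *Dbp* had 36.2, 52.7 and 11.99 CPM in the WT libraries and 72.8, 78.9 and 74.1 in the KO libraries. For these 3 genes every KO library lay above every WT library. *Per1*, whose RNA also responds quickly to glucocorticoids and other stimuli, was at 41.9, 45.3 and 35.6 CPM in the WT libraries and 37.9, 29.6 and 27.4 in the KO libraries, and the groups overlapped. *Cry1* (16.9, 24.8 and 31.5 against 24.9, 30.7 and 27.2 CPM), *Nr1d1* (295, 363 and 315 against 259, 243 and 347 CPM) and *Nfil3* (37.0, 63.2 and 74.5 against 46.8, 75.8 and 66.4 CPM) overlapped as well. So 3 of the 10 genes lay wholly above WT and 3 wholly below, where 7.56% and 10.7% of the 15178 genes tested did so.

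**Figure D1:**
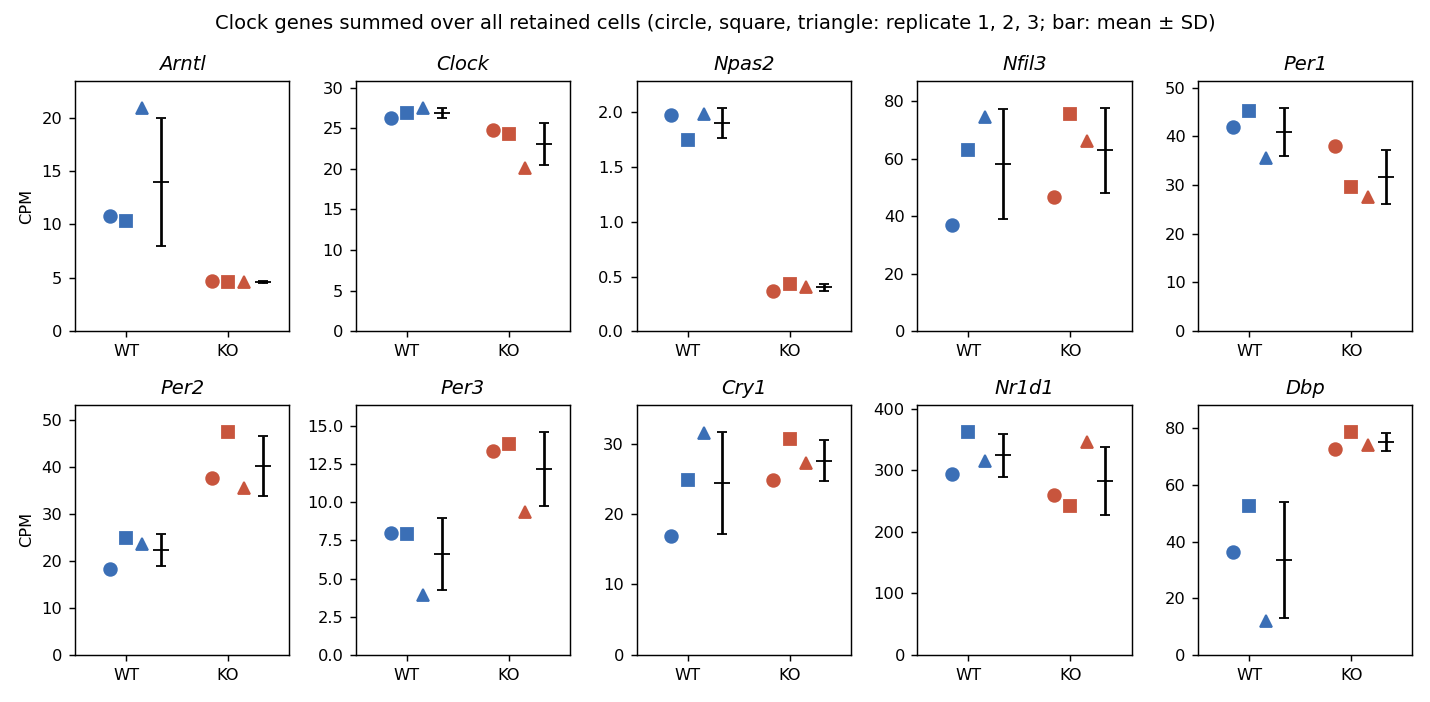
CPM (vertical axes from 0) of each clock gene summed over all retained cells, 1 panel per gene. Circles, squares and triangles are replicates 1, 2 and 3 of WT (blue) and KO (red), and black bars are the mean ± SD of 3 libraries. *Arntl* in KO sits between 4.57 and 4.75, and *Dbp* in KO between 72.8 and 78.9, each apart from all WT libraries, and WT replicate 3 is the highest for *Arntl* and the lowest for *Dbp*.

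In the fit over all genes *Npas2* alone of the 10 passed the threshold over all cells (edgeR, adjusted p under 0.05), as did 0.593% of all genes tested. Other settings called more: 4 of the 10 by DESeq2 and with equal cells per library, and 3 with no low count filter. *Arntl* and *Per2* passed in each of these 3 settings (5.72e-05 to 0.0303 and 0.000154 to 0.0232). *Npas2* fell by 2.23 on the log2 scale (SE 0.24, adjusted p 0.021, 0.0196 to 0.110 with 1 library left out). The call was lost when any 1 WT library, KO replicate 1 or KO replicate 2 was left out, and without both libraries with *Xist* (adjusted p 0.131, log2 change -2.19). *Arntl* had a log2 fold change of -1.59 (SE 0.32, adjusted p 0.0819), *Per2* of 0.86 (SE 0.16, adjusted p 0.066), *Per3* of 0.90 (SE 0.25, adjusted p 0.165) and *Dbp* of 1.20 (SE 0.43, adjusted p 0.259). That of *Clock* was -0.21 (SE 0.08, adjusted p 0.3), and it passed under 0 of 16 other settings. A sum over all cells mixes levels per cell with the makeup of the library. Each class weighted equally, *Arntl* was at 16.4 ± 7.03 CPM in WT and 7.43 ± 2.08 in KO, and *Dbp* at 29.9 ± 16.2 and 68.2 ± 10.9 CPM (mean ± SD, n = 3), with no overlap between the groups for either.

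For *Arntl* and *Dbp* the libraries stood apart also in barcodes that hold too few counts to be cells. In barcodes under 200 UMIs *Arntl* was at 13.2, 9.80 and 19.8 CPM in the WT libraries and 4.80, 3.99 and 8.80 in the KO libraries. *Dbp* there was at 18.9, 30.4 and 4.91 CPM in the WT libraries and 38.7, 37.6 and 42.7 in the KO libraries. The groups did not overlap for either gene, and the order of the WT libraries was that of the retained cells for *Dbp* and, for *Arntl*, had WT replicate 3 highest again. *Clock*, whose KO libraries lay below WT over all cells, overlapped there (log2 fold change 0.08, adjusted p 0.826). For none of the 10 genes did edgeR call a difference in these barcodes or in the sum over every barcode, where 6 genes each had an unadjusted p under 0.05 and 0.135% and 0.192% of all genes were called. How much of this free RNA entered the class levels below was not tested.

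Split by class, most calls fell in LOH, LOH-MD and podocyte-like cells. Over the 12 classes 92 tests of the 10 genes could be made, of which 11 were called higher and 5 lower in KO, in 5 classes, while 1.47% of the 97343 tests of all genes in these classes were called. The genes had been picked for such differences, so nothing is read from that share. Fewer cells with a transcript and less RNA per cell cannot be told apart in these sums. By class, 5 of 9 tested genes were called in LOH (3.64% of all genes), 4 of 9 in LOH-MD (2.23%), 5 of 10 in podocyte-like cells (1.77%), 0 of 9 in PC (3.01%), 1 of 8 in CNT (1.5%) and 1 of 9 in endothelial-like cells (0.195%). A call here and below is an edgeR adjusted p under 0.05 at the settings given under the processing. Of the 76 tests without a call, 21 passed under at least 1 of the 16 alternative settings. In PC *Arntl* (adjusted p 0.0651) passed under 6 of them, among these DESeq2 (0.00342) and equal cells per library (0.0212), and *Clock*, *Per2* and *Dbp* each passed with no low count filter. In DCT *Arntl*, *Per2* and *Dbp* (0.0647, 0.0625 and 0.0607) passed under 7, 6 and 6.

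*Arntl* in LOH was at 3.31, 4.26 and 13.96 CPM in the WT libraries and 0.846, 0.418 and 0.317 in the KO libraries, from 118 and 7 UMIs. No KO library reached the lowest WT library, and WT replicate 3 held most of the WT counts. It fell by 3.89 on the log2 scale (SE 0.70, adjusted p 0.00717), with a log2 fold change of -2.89 without WT replicate 3 (adjusted p 0.014) and of -4.55 without the libraries with *Xist* (adjusted p 0.0114). The call was lost without KO replicate 3 (range over single libraries left out 0.00255 to 0.0672). In LOH-MD it was at 5.49, 6.64 and 18.8 CPM against 1.96, 0.530 and 1.74 CPM (log2 fold change -2.75, SE 0.57, adjusted p 0.0168), a call lost without WT replicate 3 or any 1 KO replicate (up to 0.0906) and kept without both libraries with *Xist* (0.045).

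In podocyte-like cells *Arntl* was at 21.8, 20.5 and 31.9 CPM in the WT libraries and 3.72, 7.49 and 8.20 in the KO libraries. They rested on 343 UMIs in WT and 67 in KO, and WT exceeded KO 3.82 times on average. The log2 fold change was -2.01 (SE 0.29, adjusted p 0.0075), and the call held with each single library left out (0.013 to 0.0294) and without the libraries with *Xist* (0.0276). *Npas2* fell beside it, from 8.79, 6.15 and 4.48 (WT) to 0.619, 0.258 and 0.820 CPM (KO), on 94 and 6 UMIs. Its log2 fold change was -3.55 (SE 0.47, adjusted p 0.00487, 0.0107 to 0.0275 with 1 library left out, 0.0625 without the libraries with *Xist*). Podocyte-like cells were the only tested class in which *Npas2* passed the low count filter. *Per1*, at 114, 118 and 120 CPM in the WT libraries and 85.9, 67.1 and 65.6 in the KO libraries, was the one *Per* gene lower there (log2 fold change -0.70, SE 0.11, adjusted p 0.0132, lost without WT replicate 2 at 0.0585). Summed over libraries, the largest podocyte-like cluster was cluster 1 in WT and cluster 2 in KO. WT replicate 1 had more cells in cluster 2 (452 against 327), and KO replicate 3 more in cluster 1 (212 against 160). Within cluster 1 *Arntl* was at 21.1, 21.1 and 30.6 CPM in the WT libraries and 2.99, 7.88 and 4.75 in the KO libraries, and within cluster 2 at 21.6, 15.7 and 33.0 against 3.81, 6.59 and 9.64 CPM. Neither cluster overlapped between the groups. The summed podocyte markers were also lower in KO, at 17850 to 20130 CPM against 21550 to 25400 CPM in WT, and their part in the result was not tested.

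**Figure D2:**
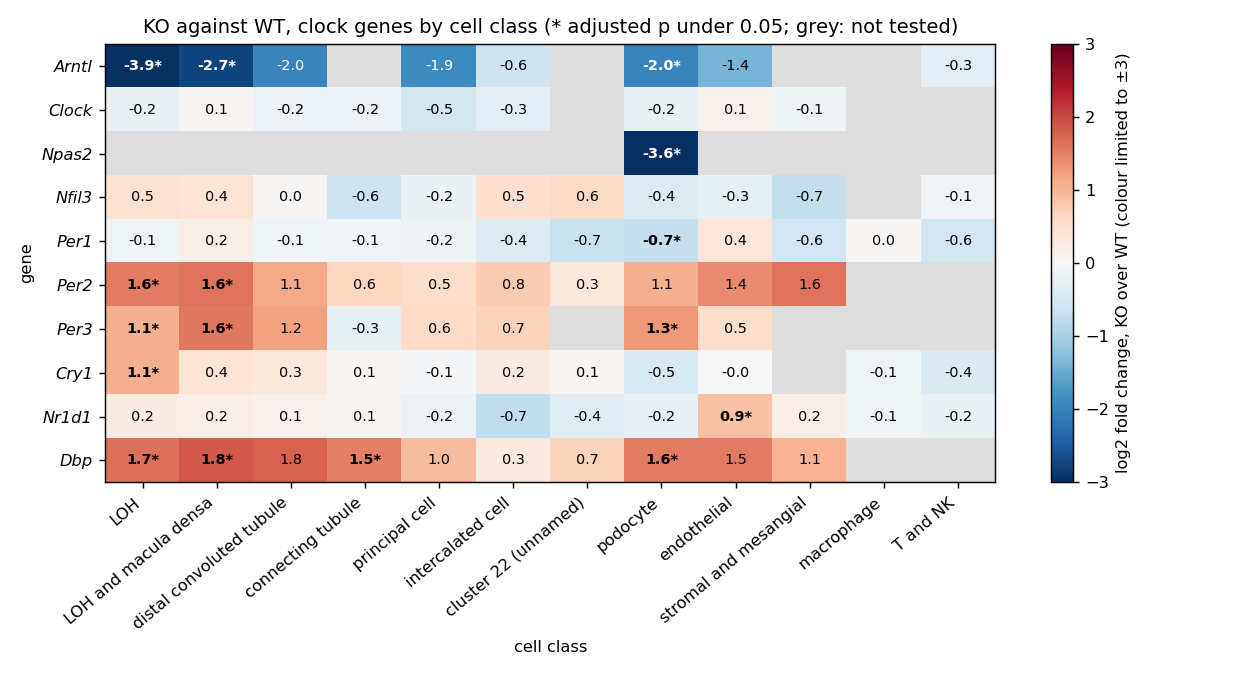
Log2 fold change of KO over WT (colour and printed value) for each clock gene (rows) in each cell class (columns) from edgeR on counts summed per library, with 3 libraries per group. Bold values with a star have an adjusted p under 0.05 and grey cells were not tested for low counts. *Arntl* is negative in all 8 classes tested and *Per2* and *Dbp* positive in all 10.

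Among the *Per* and *Cry* genes, which encode the inhibitors of the loop, the differences in LOH were all upward or within the spread. *Per2* in LOH rose from 7.34, 10.4 and 6.15 to 20.6, 27.8 and 20.7 CPM (log2 fold change 1.55, SE 0.21, adjusted p 0.00121). In LOH-MD it rose from 7.48, 9.74 and 10.3 to 24.5, 29.7 and 30.3 CPM (log2 fold change 1.63, SE 0.22, adjusted p 0.000597). The groups lay apart in both, and both calls held with each single library left out and without the libraries with *Xist*. Over its 10 tested classes *Per2* had a positive log2 fold change in all, and all KO libraries lay above all WT libraries in 8. Over the 92 tests of the 10 genes this was so in 20, and the reverse in 11, against 7.47% and 9.18% of all tests.

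*Per3* rose in the same pair of classes and in podocyte-like cells. It went from 4.73, 5.75 and 3.49 to 9.02, 11.9 and 7.92 CPM in LOH (log2 fold change 1.06, SE 0.25, adjusted p 0.0354) and from 2.99, 5.31 and 2.35 to 13.2, 9.01 and 10.1 CPM in LOH-MD (1.59, SE 0.35, adjusted p 0.0229). In podocyte-like cells it went from 11.9, 7.32 and 7.64 to 22.7, 26.9 and 16.4 CPM (log2 fold change 1.30, SE 0.23, adjusted p 0.0187). These counts were small, 68 and 139 UMIs in LOH, and the calls leaned on single libraries. In LOH the call was lost without WT replicate 1 or 3 or any 1 KO replicate (up to 0.143), in LOH-MD when any 1 library but the replicates numbered 2 was left out (up to 0.131), and in podocyte-like cells when any 1 library but WT replicate 1 and KO replicate 3 was (up to 0.0919). Without the libraries with *Xist* none of the 3 passed (0.0669, 0.0771 and 0.151), while the log2 fold changes were 1.29, 1.87 and 1.18. DESeq2 did not call LOH (0.0514) or LOH-MD (0.067). *Cry1* was called by edgeR in LOH, where it rose from 9.70, 9.16 and 9.80 to 16.9, 23.6 and 19.0 CPM (log2 fold change 1.07, SE 0.18, adjusted p 0.00437). That call held with each single library left out (0.00741 to 0.0226) and without the libraries with *Xist* (0.0156). In podocyte-like cells *Cry1* had a log2 fold change of -0.47 (adjusted p 0.56) and passed only with no low count filter (0.0117).

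*Dbp*, the output activator, was called in 4 classes. In LOH it stood at 31.9, 31.7 and 8.31 CPM in the WT libraries and 74.1, 71.1 and 74.3 in the KO libraries (log2 fold change 1.66, SE 0.30, adjusted p 0.00809). In LOH-MD it stood at 27.9, 28.3 and 7.52 against 60.2, 84.8 and 78.8 CPM (log2 fold change 1.83, SE 0.27, adjusted p 0.00125). WT replicate 3 lay far under the other WT libraries in both, and without it the log2 fold changes were 1.22 and 1.43 (adjusted p 0.000469 and 0.00122). In CNT *Dbp* rose from 29.6, 70.5 and 18.2 to 116, 130 and 93.2 CPM (log2 fold change 1.501, SE 0.28, adjusted p 0.00581). The summed markers of connecting tubule in CNT were lower in KO, at 65350 to 76610 CPM against 79140 to 87400 in WT. In LOH-MD those of the thick limb were higher, at 25870 to 29230 CPM against 19820 to 21340 in WT, as were those of connecting tubule (5078 to 6031 against 4154 to 4673 CPM), and the part of these shifts in the LOH-MD and CNT values was not tested. In podocyte-like cells *Dbp* rose from 27.7, 36.4 and 16.6 to 109, 79.8 and 53.7 CPM (log2 fold change 1.55, SE 0.26, adjusted p 0.0152). The CNT call was lost without KO replicate 2 (0.0704) and the podocyte-like call without WT replicate 1 (0.0731), and all 4 calls held without the libraries with *Xist*. DESeq2 in place of edgeR did not call *Dbp* in LOH (adjusted p 0.0817), LOH-MD (0.0534) or CNT (0.161), nor did edgeR on cells with at most 30% mitochondrial UMIs (0.203, 0.41 and 0.156), a limit met by 73 to 144 LOH cells per library. With classes taken from marker scores per cell in place of clusters, the LOH-MD call was lost as well (0.258). PC had the highest *Dbp* of any class, at 79.6, 140 and 20.2 CPM in the WT libraries and 137, 157 and 152 in the KO libraries, where the groups overlapped (log2 fold change 0.95, SE 0.42, adjusted p 0.334).

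**Figure D3:**
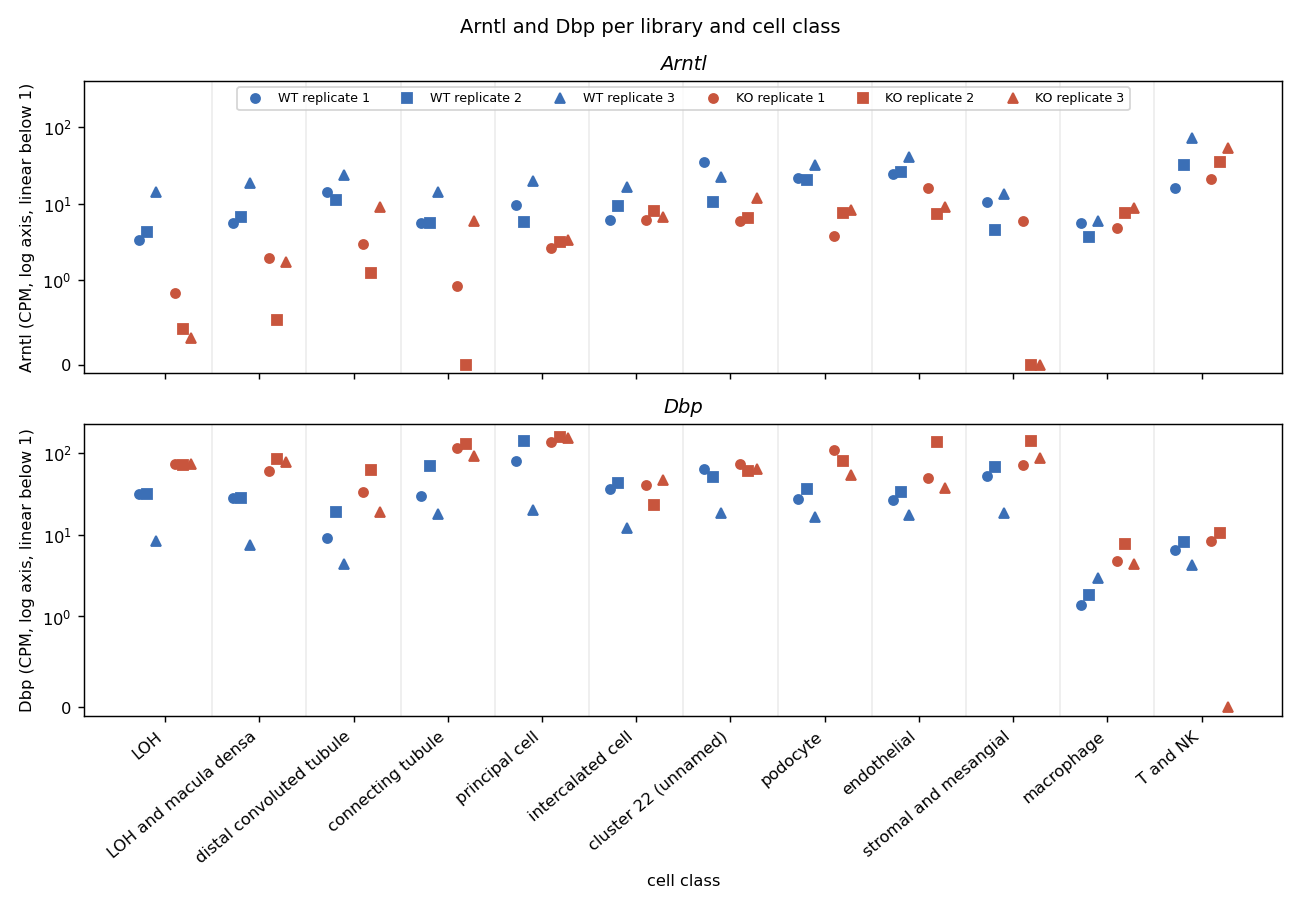
CPM of *Arntl* (top) and *Dbp* (bottom) in each cell class, 1 point per library, with circles, squares and triangles for replicates 1, 2 and 3 of WT (blue) and KO (red). The vertical axes are logarithmic and linear below 1. WT replicate 3 (blue triangle) is the highest WT library for *Arntl* and the lowest for *Dbp* in LOH (13.96 and 8.31 CPM) and in podocyte-like cells (31.9 and 16.6 CPM).

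*Nr1d1* and *Nfil3*, the repressors, followed neither direction as a whole. *Nr1d1* was called by edgeR in endothelial-like cells, where it rose from 175, 181 and 156 to 281, 357 and 285 CPM (log2 fold change 0.87, SE 0.15, adjusted p 0.0383). The call was kept without WT replicate 2, and was lost without WT replicate 1 or 3 or any 1 KO replicate (0.0348 to 0.111) and without the libraries with *Xist* (0.0724, log2 fold change 1.00). In IC the same gene was at 324, 329 and 364 CPM in the WT libraries and 188, 166 and 249 in the KO libraries, with a log2 fold change of -0.73 (SE 0.16, adjusted p 0.0789). It passed there by DESeq2 (0.0035), with no low count filter (8.58e-06) and without KO replicate 3 (0.0151). In IC the summed markers of connecting tubule were at 14260 to 18220 CPM in WT and 4667 to 12640 in KO, and those of principal cells at 2983 to 3967 and 1529 to 2438 CPM, without overlap, and their part in the IC values was not tested. The log2 fold change of *Nr1d1* was positive in 6 and negative in 6 of 12 classes, and only that in endothelial-like cells was called. Endothelial-like cells and IC were not tested against each other. The log2 fold changes of *Nfil3* ran from -0.71 to 0.58 over 11 classes and those of *Clock* from -0.54 to 0.12 over 9, with no call by edgeR among them, though *Nfil3* passed with no low count filter in LOH, podocyte-like cells and IC and in LOH-MD without WT replicate 3 (0.0119). Exons of *Nr1d1* share 263 bases with *Thra* and those of *Dbp* 539 bases with *Sphk2*, each on the opposite strand, and whether the counting used strand is not given in the sources used here. *Thra* was at 83.9, 75.4 and 76.6 CPM in the WT libraries and 71.4, 60.7 and 67.5 in the KO libraries, without overlap, and *Sphk2* ran from 16.1 to 25.2 CPM. The share of *Nr1d1* or *Dbp* counts that came from these genes was not tested.

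For 6 of the 10 genes the KO effect differed from that in LOH in at least 1 of IC, PC, CNT, podocyte-like, and T and NK-like cells. Differences of effect were tested in edgeR as class by genotype terms with the mouse as a block, each class against LOH. Of these 82 tests of the clock genes over 11 classes 8 passed, with 1.36% passing over all genes. The genes had been picked for KO against WT differences, and LOH was among the classes with the most calls. Nothing is therefore read from that share. *Arntl* had log2 fold changes of -0.62 in IC and -0.35 in T and NK-like cells against -3.89 in LOH (differences in the joint fit 3.16, SE 0.52, adjusted p 0.00744, and 3.57, SE 0.78, adjusted p 0.0407). *Dbp* had 0.30 in IC against 1.66 in LOH (difference -1.36, SE 0.22, adjusted p 0.00744), and *Nr1d1* -0.73 against 0.22 (difference -0.96, SE 0.17, adjusted p 0.0118). In IC *Arntl* was at 6.12, 9.18 and 16.3 CPM in the WT libraries and 6.06, 7.90 and 6.61 in the KO libraries, and *Dbp* at 36.3, 43.0 and 12.1 against 40.9, 22.9 and 47.2 CPM. Both overlapped between the groups in IC, in contrast to LOH. Summed over libraries, the largest IC cluster was cluster 9 in WT and cluster 14 in KO, though KO replicate 3 had more cells in cluster 9 (227 against 122). Within cluster 9, which held 227 to 351 cells per WT library and 176, 40 and 227 per KO library, *Arntl* was at 6.74, 10.1 and 14.3 against 6.31, 5.59 and 5.42 CPM, with every KO library below WT, and *Dbp* overlapped at 47.1, 50.6 and 13.5 against 66.4, 50.3 and 70.5 CPM. Within cluster 14, led by *Slc26a4* (pendrin), *Dbp* was at 12.2, 18.6 and 8.90 CPM in the WT libraries and 29.5, 20.2 and 24.4 in the KO libraries, and within cluster 16, led by *Slc4a1* (the anion exchanger AE1), at 38.2, 49.8 and 13.3 against 25.7, 12.1 and 28.3 CPM. *Arntl*, apart in cluster 9, overlapped between the groups in clusters 14 and 16. In cluster 14 it ranged over 4.73 to 22.6 CPM among WT libraries and 5.36 to 9.60 among KO libraries. The cluster 16 ranges were 6.22 to 12.4 CPM for WT and 2.49 to 12.1 for KO. For *Dbp* the groups lay apart in cluster 14 and overlapped in cluster 16, a difference that was not tested. The part of the cluster makeup of each library in the IC values was not tested either.

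For *Cry1* the effect in LOH also differed from those in PC (difference -1.11, SE 0.23, adjusted p 0.0156) and in podocyte-like cells (-1.48, SE 0.33, adjusted p 0.0323). There *Cry1* was at 23.2, 27.5 and 35.3 CPM in the WT libraries and 29.5, 26.9 and 24.3 in the KO libraries in PC, and at 29.4, 52.9 and 84.8 against 22.3, 47.0 and 56.2 CPM in podocyte-like cells. *Per2* differed between PC and LOH (difference -1.02, SE 0.19, adjusted p 0.00916) and *Nfil3* between CNT and LOH (-1.01, SE 0.24, adjusted p 0.0219). *Per2* in PC was at 45.8, 48.3 and 41.5 CPM in the WT libraries and 58.6, 75.5 and 56.1 in the KO libraries, apart but by less than in LOH. The count of 8 fell to 4 without WT replicate 2, WT replicate 3 or KO replicate 2 and to 5 without KO replicate 1.

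Within a genotype the libraries differed in some of these genes and not in others. Among WT libraries replicate 3 had the highest *Arntl* in 8 of the 8 classes where the gene was tested and the lowest *Dbp* in 10 of 10. Where counts were too low for the test this did not always hold, with *Arntl* in cluster 22 at 34.8, 10.3 and 22.4 CPM (15 UMIs) and *Dbp* in macrophage-like cells at 1.38, 1.84 and 2.95 CPM (3 UMIs) in WT. *Per3* was lowest in WT replicate 3 in 7 of 8 classes and *Cry1* highest there in 9 of 11. *Nfil3* was highest in WT replicate 3 in 9 of 11 classes and lowest in WT replicate 1 in 10. *Per2* did not follow, being highest in WT replicate 2 in 7 and in WT replicate 3 in 3 of 10 classes and lowest in WT replicate 1 in 7 and in WT replicate 3 in 3. For *Per1* and *Nr1d1* no WT library was highest in more than 5 of 12 classes, and *Clock* was highest in WT replicate 3 in 6 of 9. The classes of a library come from 1 mouse, so these counts describe single mice and not independent repeats. *Dbp* UMIs per *Arntl* UMI over all cells numbered 3.37, 5.12 and 0.573 in WT and 15.3, 17.25 and 16.05 in KO. Over all cells the KO values lay close together and the WT values far apart. This was not so in each class: in podocyte-like cells the ratio was 1.27, 1.78 and 0.521 in WT and 29.2, 10.7 and 6.55 in KO, and in endothelial-like cells 1.08, 1.28 and 0.429 in WT and 3.14, 18.5 and 4.10 in KO. In KO no library took such a place for *Arntl*, which was highest in replicate 1 in 3, replicate 2 in 1 and replicate 3 in 4 of 8 classes.

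The genes whose pattern was most like that of *Arntl* or *Dbp* were sought among 9191 other genes that passed the low count filter in at least 6 classes, as Pearson correlations of log2(CPM + 1) deviations from the class mean over 72 library-by-class sums, which come from 6 mice. By deviations from the class mean, which hold the KO against WT difference, the 5 genes most opposite to *Arntl* were *Dbp* (r = -0.79), *Tef* (-0.77), *Nr1d2* (-0.72), *Zbtb16* (-0.63) and *Rbm3* (-0.63), and the 5 most like it *Ckb* (0.56), *Dbi* (0.54), *Ccl5* (0.54), *Ipcef1* (0.54) and *Sptbn1* (0.54). The 5 most like *Dbp* were *Tef* (0.77), *Zbtb16* (0.72), *Nr1d2* (0.70), *Gm49980* (0.61) and *Dhrs7* (0.59), and the 5 most opposite *Arntl*, *Ckb* (-0.55), *Gm15446* (-0.52), *Hnrnpc* (-0.51) and *Hsp90b1* (-0.50). TEF is of the same family as DBP, and *Nr1d2* encodes REV-ERB beta.

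With the genotype difference taken out, as deviations from the mean of each class and genotype, *Dbp* was still the gene most opposite to *Arntl* of the 9191 (r = -0.62), and *Arntl* the most opposite to *Dbp*. *Arhgdia* (-0.59), *Apobec3* (-0.58), *Tef* (-0.57) and *Arpc1b* (-0.55) came next for *Arntl*, and *Serp1* (0.54), *Xbp1* (0.49), *Adnp2* (0.49), *Zfp143* (0.47) and *Ranbp3l* (0.47) were most like it. For *Dbp* the most like were *Spryd3* (0.68), *Tdrd7* (0.67), *Prr12* (0.67), *Dnajc14* (0.67) and *Mapk3* (0.66), and the most opposite after *Arntl* were *Rpl36al* (-0.58), *Hspa9* (-0.58), *Atp6v0e* (-0.56) and *Cldn4* (-0.56). *Per3* had r = -0.45 with *Arntl* within genotype, *Per2* -0.05, *Nr1d1* 0.10 and *Clock* 0.10. The *Per2* correlation had been -0.61 with the genotype difference included. Points of 1 library share its depth and mouse, so these values are descriptions. WT replicate 3 had the highest *Arntl* of the WT libraries in 8 of 8 tested classes and the lowest *Dbp* in 10 of 10. The part of that 1 mouse in these correlations and ranks was not tested.

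**Figure D4:**
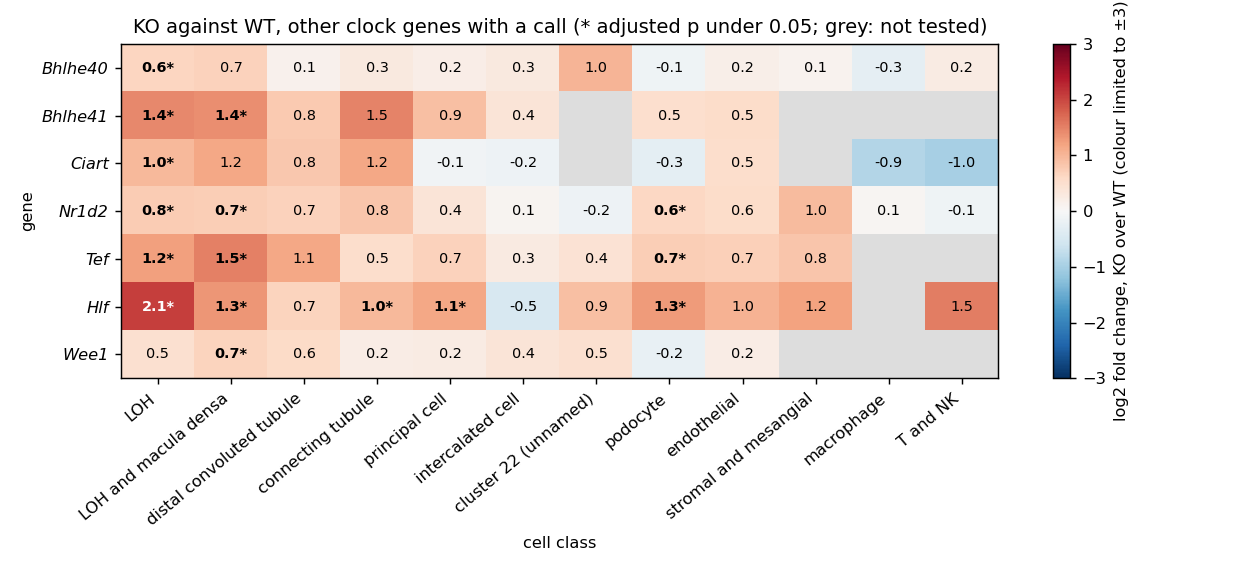
Log2 fold change of KO over WT (colour and printed value) for the 7 other clock genes called in at least 1 class (rows) by cell class (columns), from edgeR with 3 libraries per group. Bold values with a star have an adjusted p under 0.05 and grey cells were not tested. All 16 starred values are positive, 6 of them in LOH and 5 in LOH-MD.

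A list of 20 further genes of the clock pathway, taken from textbook knowledge, was read beside the 10. Of its 179 tests over the 12 classes 16 were called (edgeR), each higher in KO, where 1.47% of all tests were called, and 19 of the 20 genes were tested in at least 1 class. In LOH 6 of 17 were called, in LOH-MD 5 of 17, in podocyte-like cells 3 of 17, in CNT 1 of 16 and in PC 1 of 19. The median log2 fold change of the list was 0.30 in LOH, 0.20 in LOH-MD and 0.0015 in podocyte-like cells, against -0.004, -0.0003 and 0.0033 over all genes. The 7 genes called were *Hlf*, *Tef*, *Nr1d2*, *Bhlhe40*, *Bhlhe41*, *Ciart* and *Wee1*. The others were not called by edgeR in these classes, among them *Cry2*, *Rora*, *Rorb*, the kinases *Csnk1d*, *Csnk1e* and *Gsk3b*, and *Usp2*. *Rorb* went the other way, with log2 fold changes of -2.07 and -1.46 in its 2 tested classes and KO libraries below WT in both. With a block for libraries with *Xist* it passed as lower in IC (0.0173) and PC (0.0446). Over the 179 tests all KO libraries lay above WT in 40 and below in 11, against 7.47% and 9.18% of all tests.

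*Hlf*, the third of the activators that bind D-boxes, was called in 5 classes. In LOH it went from 6.63, 9.16 and 4.32 (WT) to 21.1, 33.7 and 26.9 CPM (KO) (log2 fold change 2.07, SE 0.24, adjusted p 0.000441). In PC it went from 17.3, 24.0 and 10.8 to 34.5, 41.1 and 37.8 CPM (1.15, SE 0.21, adjusted p 0.0143), the one clock gene of either list that edgeR called in PC. Of the 163 tests of the list without a call, 26 passed under at least 1 alternative setting. *Tef* in LOH-MD went from 21.9, 23.9 and 10.3 to 46.5, 70.5 and 43.9 CPM (1.51, SE 0.24, adjusted p 0.00218), with WT replicate 3 lowest as for *Dbp*. *Nr1d2* was called in LOH, LOH-MD and podocyte-like cells, at log2 fold changes of 0.76, 0.74 and 0.63. In podocyte-like cells it went from 69.7, 86.3 and 62.7 to 115, 106 and 123 CPM. *Bhlhe41*, which encodes the E-box repressor DEC2, went from 5.44, 6.39 and 9.14 to 16.4, 23.4 and 17.9 CPM in LOH (1.44, SE 0.22, adjusted p 0.00289) and had no overlap between the groups. *Bhlhe40* (DEC1) and *Ciart*, a further repressor, were called in LOH (0.63 and 0.98) and the cell cycle kinase gene *Wee1* in LOH-MD (0.68).

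Levels over classes are given for the WT libraries as a description, since the classes came from the same cells. *Arntl* ran from 5.03 ± 1.18 CPM in macrophage-like cells to 40.5 ± 29.3 in T and NK-like cells (mean ± SD, n = 3). Each of its 11 pairs of neighbours in that order overlapped between libraries, and endothelial-like (30.5 CPM), podocyte-like (24.7 CPM) and cluster 22 cells (22.5 CPM) followed the T and NK-like class. *Clock* was highest in podocyte-like cells, at 63.8 ± 1.82 CPM, apart from the next class, and lowest in LOH at 15.04 ± 4.57 CPM. *Npas2* was at 7.50 ± 4.08 CPM in cluster 22 and 6.47 ± 2.17 CPM in podocyte-like cells, and had 0 UMIs in macrophage-like cells. *Clock* and *Npas2*, the alternative partners of BMAL1, thus both stood high in podocyte-like cells.

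*Per1* and *Nfil3* were highest in T and NK-like cells, at 165 ± 31.6 and 173 ± 43.6 CPM, and each lay apart from the next class there. *Per1* came second in podocyte-like cells, at 117 ± 3.12 CPM, again apart from the rest, and was lowest in CNT at 18.2 ± 3.29 CPM. *Per2* and *Per3* were highest in PC (45.2 ± 3.43 and 10.6 ± 3.70 CPM), with all neighbours overlapping. Without WT replicate 1 *Per2* was highest in cluster 22 and *Per3* in stromal or mesangial-like cells, and without WT replicate 2 *Per3* was highest in CNT. *Dbp* was also highest in PC, at 80.1 ± 60.1 CPM in WT with WT replicate 3 at 20.2 CPM (49.9 CPM without WT replicate 2 and still highest), and at 149 ± 10.4 CPM in KO, where PC lay apart from the next class. *Cry1* and *Nr1d1* were highest in cluster 22 in WT (67.0 ± 33.1 and 538 ± 348 CPM), a class of 40 to 69 cells per library. For *Nr1d1* that place rested on WT replicate 3, without which podocyte-like cells were highest at 572 CPM and PC followed at 419 CPM. *Nr1d1* was lowest in macrophage-like cells at 22.7 ± 6.96 CPM and next in T and NK-like cells at 71.9 ± 29.3 CPM, as was *Dbp* at 2.06 ± 0.805 and 6.28 ± 1.89 CPM, on 3 and 7 UMIs. The immune classes thus held little *Nr1d1* and *Dbp*, while *Per1* and *Nfil3* were highest in T and NK-like cells whichever WT library was left out. For *Arntl* the first place of T and NK-like cells rested on WT replicate 3, without which endothelial-like cells led at 25.3 CPM and T and NK-like cells followed at 24.2 CPM.

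**Figure D5:**
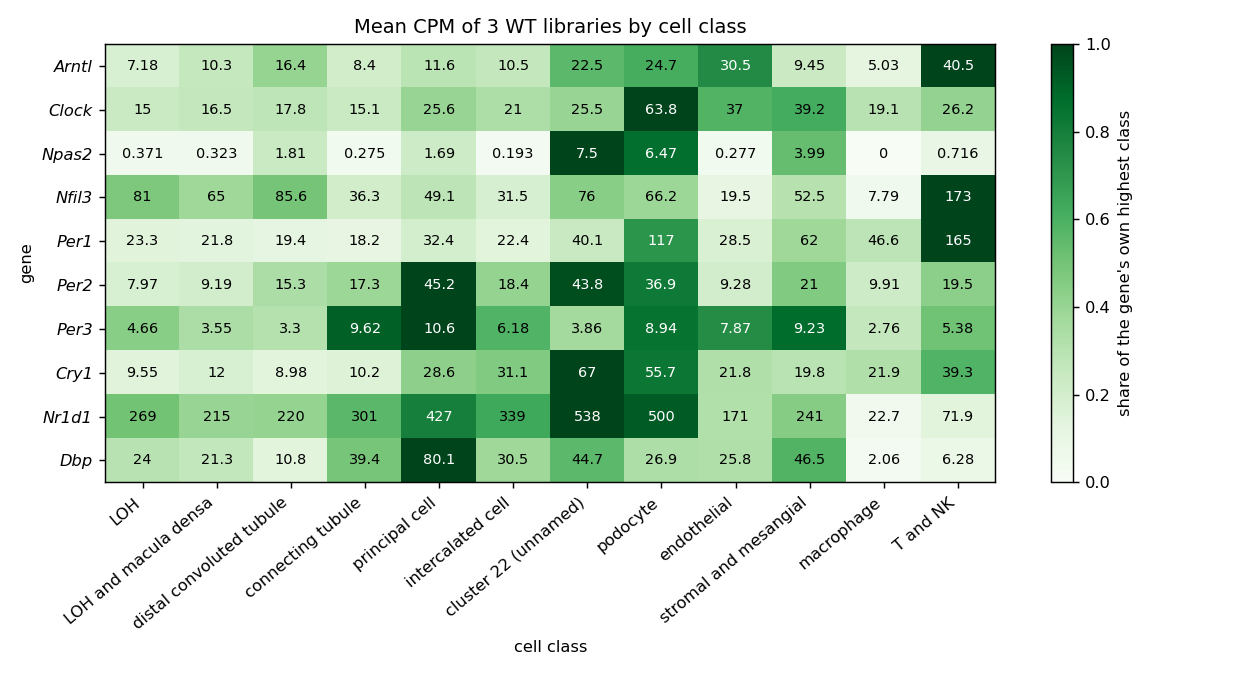
Mean CPM of the 3 WT libraries (printed values) for each clock gene (rows) in each cell class (columns), with colour as the share of the gene's own highest class. *Clock* peaks in podocyte-like cells (63.8), *Per2*, *Per3* and *Dbp* in PC, and *Arntl*, *Nfil3* and *Per1* in T and NK-like cells. Values can be compared along a row and not between rows.

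Beside the clock genes, 2 lists of genes that respond to handling of tissue or to hormones were followed. Of 13 dissociation and immediate early genes, *Fos*, *Dnajb1* and *Zfp36* were called higher in LOH by edgeR (log2 fold changes 0.58, 0.62 and 0.51), where 3.64% of all genes were called. The summed CPM of the list was 9615 to 12194 in WT and 13766 to 16121 in KO in LOH, without overlap, and 16936 to 30569 in WT and 19478 to 34785 in KO in podocyte-like cells, with overlap. These sums also lay apart in LOH-MD, and overlapped over all cells and in the remaining classes. Of 5 genes induced by glucocorticoids, hormones whose blood level follows the day, *Fkbp5* was called higher in LOH, LOH-MD, PC, podocyte-like and endothelial-like cells, and in DCT and macrophage-like cells, where 0.966% and 0.384% of all genes were called. In LOH it went from 30.8, 43.5 and 33.7 (WT) to 150.8, 90.4 and 114.8 CPM (KO) (log2 fold change 1.72, SE 0.17, adjusted p 0.00016). *Zbtb16*, a gene of the same list and among the genes most like *Dbp*, was called higher in LOH, LOH-MD and podocyte-like cells (1.74, 2.08 and 4.00). *Tsc22d3* and *Klf9*, also of that list, were not called by edgeR, and *Ddit4* was called in macrophage-like cells (1.43). The summed CPM of these 5 genes over all cells was 308 to 353 in WT and 376 to 546 in KO, without overlap. KO sums also lay above WT in LOH-MD and in podocyte-like, endothelial-like, macrophage-like and stromal or mesangial-like cells. They overlapped in LOH (362 to 408 in WT, 407 to 617 in KO) and in the remaining classes. Of the 197 tests of both lists over the 12 classes without a call, 47 passed under at least 1 alternative setting. Higher in KO among them were *Fos*, *Dnajb1* and *Zfp36* in LOH-MD and *Tsc22d3* in LOH. Some passed as lower in KO. With no low count filter *Ddit4* did so in CNT, DCT, IC and podocyte-like cells (-0.77, -0.50, -0.57 and -0.55). *Atf3* in podocyte-like cells, *Jund* and *Zfp36* in DCT and *Egr1* in CNT also passed as lower. The part of either list in the clock gene differences was not tested.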

How the data were processed

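Renal cortex cells of 3 WT and 3 KO mice were profiled with BD Rhapsody, 1 library per mouse. The deposited UMI counts per gene and cell label were made by the authors with the BD Rhapsody whole transcriptome pipeline on mm10 with GENCODE vM23, and Scanpy 1.8 is named in the submitters' processing notes. The counts hold every barcode (96382945 to 121198131 UMIs per library), with no cell filter and no normalization.

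Barcodes with 500 to 60000 UMIs, 200 to 8000 genes and at most 50% mitochondrial UMIs were kept. Scrublet's own threshold marked under 0.5% of cells, so the 6% with the highest scores were removed per library. Of the 28488 remaining cells, 26 clusters were made (scanpy 1.11.5, 2000 variable genes without clock genes, 30 components, leidenalg 0.10.2). The resolution of 1.5 was chosen after clusters at a lower one were seen. Clusters were named from marker lists (cluster 22, led by haemoglobin genes, was tested but left unnamed). B-like, neutrophil-like and proximal-like cells were left out of the class tests for having few cells in some library. Cluster 21 was left unnamed and out of the class tests for low depth. Its median was 0.291 of the library median in UMIs, and 0 markers of its best list were among its 10 leading genes. UMIs were summed per library and class and tested with edgeR 4.0.16 in R 4.3.3 (quasi-likelihood, TMM, minimum count 10, two-sided, Benjamini-Hochberg over all genes tested in a class, threshold 0.05), and DESeq2 1.42.0 was an alternative. Intervals and p-values cover the spread between these libraries. Levels are CPM, counts per 1000000 UMIs of the class and library. The script was tested on simulated data.

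The genes, lists and comparisons were chosen with earlier results of these data known. Named were all 10 genes in each tested class where they passed and over all cells, the other clock genes past the threshold in at least 1 class, and the 5 genes most and least like *Arntl* and *Dbp*. Alternatives were size factors, tool, low count filter, mitochondrial limit, doublets, equal cells per library, class assignment, a replicate block, libraries with *Xist* and each library left out.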

Additional observations from a re-analysis of the deposited data

Results flagged for a closer look

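Each result here is a KO effect that differed from that in LOH by the edgeR test of the class by genotype term (adjusted p under 0.05), and no explanation was tested. *Arntl* differed in T and NK-like cells by 3.57 and in IC by 3.16 on the log2 scale, its fall being larger in LOH. *Dbp* differed in IC by -1.36 and *Nr1d1* in IC by -0.96. *Cry1* differed in podocyte-like cells by -1.48 and in PC by -1.11, *Per2* in PC by -1.02, and *Nfil3* in CNT by -1.01. Podocyte-like clusters also differed in their *Cry1* level and in their cells per library, and the part of this was not tested. The *Arntl* effect in T and NK-like cells rested on 51 UMIs in WT and 19 in KO, and that in LOH on 118 and 7.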

How the results depend on the processing

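Of the 16 calls of the clock genes within classes, the count was 36 of 119 tests with no low count filter and 6 of 68 with at most 30% mitochondrial UMIs, and 11 to 18 with 1 library left out. For the other clock genes the 16 calls became 39 with no filter, 4 at the 30% limit and 9 to 16 with 1 library left out, the count being 10 without WT replicate 1 and 9 without KO replicate 2. Over every barcode and in barcodes under 200 UMIs 0 of the 10 genes were called by edgeR, against 1 over retained cells. The 8 differences from LOH numbered 4 to 9 with 1 library left out and 8 with other size factors. Over all cells the log2 fold change of *Nfil3* ran from -0.12 (without WT replicate 1) to 0.39 (without WT replicate 3) with 1 library left out and was -0.12 at the 30% limit, that of *Cry1* ran from -0.0321 to 0.4578 with the same libraries left out and was -0.0244 at that limit, and that of *Nr1d1* was 0.0105 without the libraries with *Xist*, against main values of 0.13, 0.19 and -0.16. The causes were not tested. Over all cells the 1 call became 4 by DESeq2 and with equal cells per library and 3 with no low count filter. In classes DESeq2 made 17 calls, 8 higher and 9 lower, where edgeR had 11 and 5. Of 498 alternatives to the 32 called results of single genes, 397 kept the call, 101 lost it and 0 turned direction. The sample titles number the mice and do not say whether equal numbers form pairs. Deviations of same-numbered libraries correlated at 0.26, -0.06 and 0.33. The first and last of these were the highest of all WT with KO pairs, while WT replicate 2 was closest to KO replicate 1 (0.22). With the replicate block 20 tests of the clock genes and 20 of the other clock genes were called in classes, and 3 of the 10 genes over all cells. Removing 12% of cells as doublets, added after the data were seen, gave 16 and 15 calls, and the planned removal of 6% was already the main setting. Each gene's highest WT level moved by less than 1 SD with classes from marker scores, which gave 83.0% of cells the same class. Scarce genes limit these comparisons most: *Npas2* had 187 UMIs in WT and 32 in KO over all cells.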
